A study of Mus musculus with 4 samples.

Results

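The E2F transcription factors of the mouse are encoded by 8 genes, E2f1 to E2f8. Their members were taken as every array spot, control spots aside, whose gene name in the scanner files was one of these symbols. This gave 10 probes for the 8 genes out of 39429 probes, which stand for 31709 named genes or transcripts. E2f3 and E2f7 had a pair of probes each and the other genes had 1. RefSeq assigned 10 of the 10 probes to the same gene.

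E2F proteins bind short GC-rich sites in promoters and set the timing of genes that a cell needs to copy its DNA. E2F1, E2F2 and E2F3 are known as activators, because they switch these genes on at the start of the S phase once the retinoblastoma protein RB has released them. E2F4 and E2F5 are known as repressors that act with the RB-related pocket proteins p107 and p130, E2F6 as an RB-independent repressor held in a polycomb complex, and E2F7 and E2F8 as atypical repressors that need no DP partner. In fibroblasts, p53 induces the kinase inhibitor p21 (Cdkn1a), which keeps the pocket proteins bound to E2F, and the DREAM complex of p130, E2F4 and the MuvB core then represses cell cycle genes.

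RNA was measured in mouse embryonic fibroblasts (MEFs), connective tissue cells grown from embryos, that were wild-type (WT, p53+/+) or lacked p53 (p53-/-). Each genotype was left untreated or was given doxorubicin, a topoisomerase II poison that breaks DNA, so there were 4 conditions with 1 one-color Agilent array each, all on 1 slide. The labels give neither dose nor time for the arrays and do not say how many embryos or cultures stood behind an RNA sample. So no p-value was calculated, and what sets an array apart on the slide and what its condition does cannot be told apart.

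A signal is the spot intensity as deposited. A log2 ratio compares signals after each array was scaled to its 75th percentile (signals of 1819 to 2421), and a gene was said to rise or fall where its ratio reached 2-fold. Repeat spots of 253 probes gave an SD of 0.06 for a log2 signal, 0.08 for a log2 ratio of 2 arrays and 0.12 for a difference of 2 ratios. For signals under 300, the SD of a ratio was 0.18. This spread covers spots on an array and not cultures. The Trp53 probe had signals of 1228 (untreated) and 3442 (treated) in WT and of 442 and 543 in p53-/- MEFs, and its place relative to the deletion was not analysed here. Of 12 fibroblast markers, 12 were well above background on each array. Of 7 leukocyte markers, 4 were well above background on all arrays, and of 6 epithelial markers 3. The same was found for 2 of 4 endothelial, 3 of 4 neural and 1 of 3 muscle markers. In bulk RNA, a change in the share of cells of a kind, for example cells in the S phase, and a change of RNA per cell cannot be told apart.

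Promoter sequence is shown first, because 4 of the members carry a match to the motifs through which E2F and DREAM complexes are known to bind. The windows came from RefSeq (assembly GRCm38.p6) and ran from 250 bases before to 50 bases after an annotated start site. There were 8 such windows for 6 members, and E2f4 and E2f5 had none. Both strands were searched for the E2F words TTTCCCGC, TTTCGCGC, TTTGCCGC and TTTGGCGC, for the cell cycle homology region (CHR) word TTTGAA and for CCAAT, the word bound by NF-Y. The words were chosen after the sequences had been seen. An E2F word stood in 3 of the 8 member windows and in 744 of all 32851 windows (2.26%). The CHR word stood in 3 member windows and in 17.9% of all windows, and CCAAT in 5 member windows and in 37.4% of all windows. None of the matches overlapped another. A match describes the letters only and is no evidence of binding.

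The 250 bases before the start site are printed for E2f3, E2f2 and E2f7, whose start sites lie at or within 1 base of the annotated 5′ end of the gene. They are E2f3 at chr13:29986064-29986313 (minus strand), E2f2 at chr4:136172024-136172273 (plus strand) and E2f7 at chr10:110745189-110745438 (plus strand), each 5′ to 3′ on the strand of the gene, with E2F, CHR and CCAAT words in capitals.
E2f3: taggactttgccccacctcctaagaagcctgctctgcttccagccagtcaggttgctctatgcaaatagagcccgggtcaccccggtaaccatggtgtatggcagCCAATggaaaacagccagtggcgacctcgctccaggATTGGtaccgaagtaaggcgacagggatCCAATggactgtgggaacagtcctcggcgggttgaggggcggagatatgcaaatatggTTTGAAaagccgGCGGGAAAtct
E2f2: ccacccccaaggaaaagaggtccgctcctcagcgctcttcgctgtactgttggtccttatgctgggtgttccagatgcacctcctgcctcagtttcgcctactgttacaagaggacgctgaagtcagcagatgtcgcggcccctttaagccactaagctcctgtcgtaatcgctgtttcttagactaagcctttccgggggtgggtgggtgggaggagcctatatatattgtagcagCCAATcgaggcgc
E2f7: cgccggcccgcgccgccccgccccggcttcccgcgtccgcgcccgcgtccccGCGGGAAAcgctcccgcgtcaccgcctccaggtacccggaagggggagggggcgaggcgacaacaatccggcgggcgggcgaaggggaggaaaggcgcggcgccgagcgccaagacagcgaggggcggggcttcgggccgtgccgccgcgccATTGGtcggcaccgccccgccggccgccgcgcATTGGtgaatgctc
Of the 8 windows, only that printed for E2f3 had both an E2F and a CHR word, at -11 and -23 from the start site. Such a pair stood in 90 of all windows (0.274%). E2f7 held its E2F word at -198 and a pair of CCAAT words at -46 and -14.

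The E2F word of E2f2 lay after the start site, with its first base at +40, and the CHR word of E2f8 at -20 from a start site 477 bases inside the annotated gene. Both members are shown with 30 bases around the word, in capitals, at chr4:136172294-136172323 (plus strand) and chr7:48881599-48881628 (minus strand).
E2f2: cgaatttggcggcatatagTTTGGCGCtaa
E2f8: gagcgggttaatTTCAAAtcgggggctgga
The third CHR match among the members was in a second E2f2 window, at a start site 8508 bases inside the gene. A second E2f3 window, at a start site 1673 bases inside the gene, held no E2F, CHR or CCAAT word. The single windows of E2f1 and E2f6 held neither word. That of E2f1 started 466 bases inside the annotated gene.

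With doxorubicin, 1 activator (E2f2) and 1 repressor (E2f8) fell 9.05-fold and 7.80-fold in WT MEFs, and the other 6 members stayed within 2-fold. So 2 of 8 members fell and 0 rose. Of all 17513 genes measured on both WT arrays, 10.4% fell and 11.0% rose. When arrays were scaled to their medians instead, all ratios moved lower (median of all genes -0.27 in WT and -0.30 in p53-/- MEFs), and the 1930 genes that rose and 1828 that fell in WT MEFs became 1319 and 2792. The p53-/- MEFs had 1 of 8 members that rose (E2f7, by its brighter probe only) and 0 that fell, where 9.24% of all genes rose and 6.89% fell. Between untreated genotypes, 0 members were 2-fold apart in either direction (2.15% of all genes were higher and 2.61% lower in p53-/- MEFs). With doxorubicin, 4 of 8 members were at least 2-fold higher in p53-/- than in WT MEFs (E2f1, E2f2, E2f7 and E2f8) and 0 were lower, against 11.9% and 10.3% of all genes. E2f7 passed by its brighter probe only, as its second probe had a log2 ratio of 0.71.

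**Figure D1:**
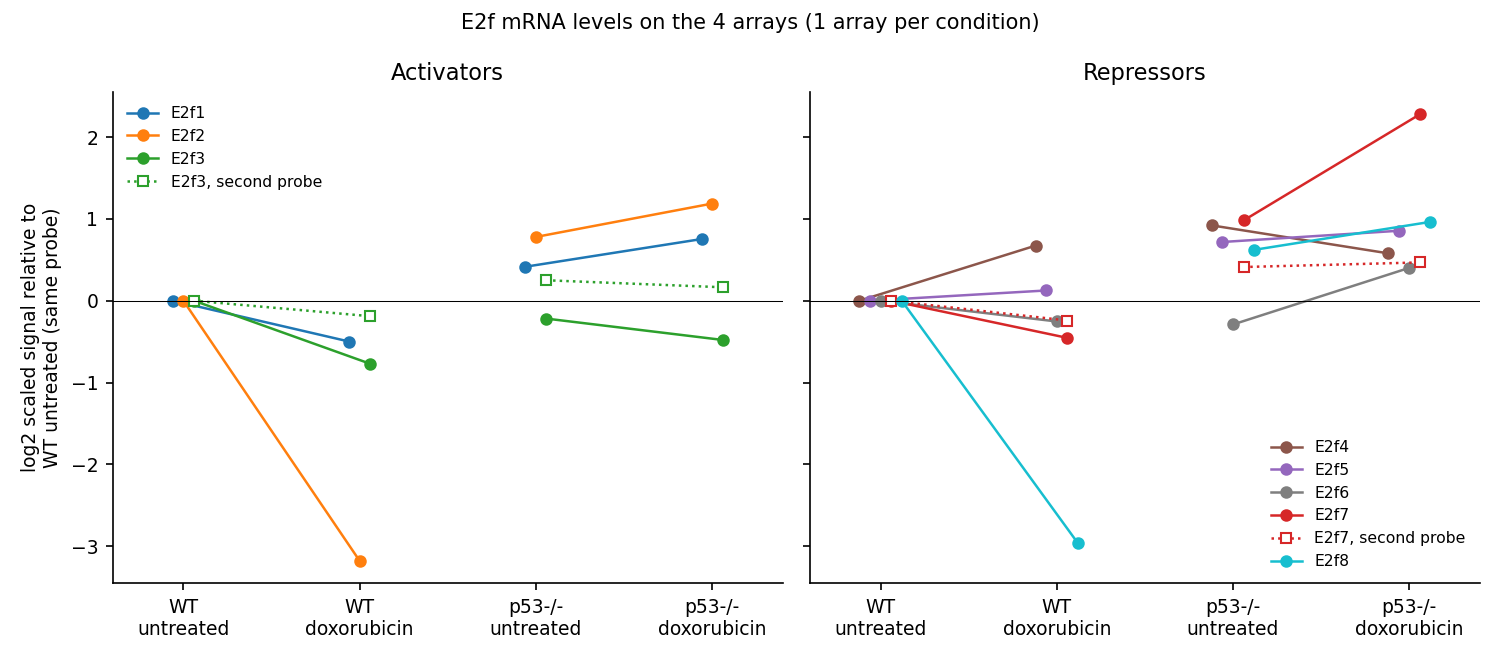
Each point is the scaled log2 signal of an E2f probe on 1 array, relative to the same probe in untreated WT MEFs, with activators on the left and repressors on the right; lines join the untreated and doxorubicin-treated array of a genotype and open squares are second probes. E2f2 and E2f8 drop to -3.18 and -2.96 in doxorubicin-treated WT MEFs, and E2f7 has the largest increase over its own untreated WT level in doxorubicin-treated p53-/- MEFs.

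E2f1 encodes the activator best known for driving both S phase entry and apoptosis. Its probe (mm9 chr2:154385798-154385857) had signals of 2919 without and 1812 with doxorubicin in WT MEFs, and of 3530 without and 5745 with it in p53-/- MEFs. Treated WT MEFs thus had the lowest level and treated p53-/- MEFs the highest, and each neighboring pair in that order was further apart than 2 SD of a ratio. With scaling to array medians, the treated and untreated p53-/- levels were within 2 SD (log2 ratio 0.04). The log2 ratio of treated over untreated was -0.50 for WT and 0.34 for p53-/- MEFs, neither of which reached 2-fold. With doxorubicin, E2f1 was 2.38-fold higher in p53-/- than in WT MEFs.

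E2f2, which encodes the second activator, had the widest range of the 8 members. Its probe (mm9 chr4:135750562-135750621) gave 1079 without and 104.5 with doxorubicin in WT MEFs, and 1679 without and 2868 with it in p53-/- MEFs. The single low array was that of treated WT MEFs, where the signal was 1.35 times that of the brightest negative control spot. E2f2 fell 9.05-fold in WT MEFs (log2 ratio -3.18), and 83 of 17513 genes fell further. Its log2 ratio was 0.41 where p53 was absent, and the difference between genotypes (WT minus p53-/-) was -3.59. With doxorubicin, E2f2 was 20.6-fold higher in p53-/- than in WT MEFs, a ratio that 68 of 17892 genes exceeded. With normexp background correction, the log2 ratio of E2f2 in WT MEFs was -2.61, and that between treated genotypes was 3.69 in place of 4.36.

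E2f3, the third activator, had a bright probe (mm9 chr13:29998480-29998539) with signals of 4732 without and 2432 with doxorubicin in WT MEFs. For p53-/- MEFs they were 3688 and 3963. The log2 ratio was -0.77 for WT and -0.26 for p53-/- MEFs, so after scaling E2f3 was lower with doxorubicin in both genotypes, unlike E2f1 and E2f2. The p53-/- signal of E2f3 was higher with doxorubicin before scaling, so its ratio of -0.26 comes from the scaling. Scaling to array medians took the WT ratio to -1.05, past 2-fold. The second E2f3 probe spans an exon junction (mm9 chr13:30005369-30008755). Its signals of 431 (untreated) and 332 (treated) for WT and of 465 and 564 for p53-/- MEFs gave smaller ratios of -0.19 and -0.09. The ratio of -0.09 was within 2 SD of a ratio. Between untreated genotypes the probes differed in sign, at -0.22 for the bright and 0.25 for the second probe.

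E2f4 and E2f5 encode the repressors that carry p107 and p130 to promoters in resting cells. E2f4 (mm9 chr8:107829156-107829215) had signals of 292.6 without and 409 with doxorubicin in WT MEFs. The p53-/- arrays gave 502 without and 510 with it, so untreated WT stood below the other conditions. E2f4 was the only member more than 2 SD higher in treated than in untreated WT MEFs, at a log2 ratio of 0.67, and its ratio in p53-/- MEFs was -0.34. Neither reached 2-fold, while their difference of 1.01 did, though not with normexp (0.83) or quantile normalization. The p53-/- signals of E2f4 were nearly equal before scaling, so its ratio of -0.34 comes from the scaling. E2f5 (mm9 chr3:14605676-14605735) had signals of 448 without and 428 with doxorubicin in WT MEFs, and of 668 without and 945 with it in p53-/- MEFs. The untreated and treated levels of E2f5 stood within 2 SD of each other in each genotype (log2 ratios of 0.13 and 0.14), and their sign turned under scaling to array medians (-0.15 and -0.16). E2f5 was instead higher in p53-/- MEFs, by log2 ratios of 0.72 untreated and 0.73 with doxorubicin.

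E2f6 (mm9 chr12:16833463-16833522), whose product represses without RB, gave 8387 without and 6169 with doxorubicin in WT MEFs. The p53-/- arrays gave 6221 without and 12933 with it, the latter being the highest of the 4 levels. The log2 ratio was -0.25 for WT and 0.69 for p53-/- MEFs, a difference of -0.95, and none of these reached 2-fold. Treated WT and untreated p53-/- MEFs had E2f6 levels within 2 SD of each other after scaling.

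E2f7 and E2f8 encode the atypical E2Fs, which form homodimers or heterodimers with each other and repress genes that E2F1 had switched on. E2f8 (mm9 chr7:56121860-56121919) had signals of 1955 without and 219.8 with doxorubicin in WT MEFs, and of 2728 without and 4450 with it in p53-/- MEFs. As with E2f2, the single low array was that of treated WT MEFs. E2f8 fell 7.80-fold in WT MEFs (log2 ratio -2.96), and 107 genes fell further. The p53-/- ratio was 0.34, which gave a difference of -3.30. With doxorubicin it was 15.2-fold higher in p53-/- than in WT MEFs.

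E2f7 stayed within 2-fold in WT MEFs, and treated p53-/- MEFs had the highest of its 4 levels. Its brighter probe (mm9 chr10:110224331-110224390) had signals of 2374 without and 1520 with doxorubicin in WT MEFs (log2 ratio -0.45). Without p53, the signal was 4250 before and 13437 after treatment, a rise of 2.46-fold (log2 ratio 1.30), and 958 of 16953 genes rose further. The level in treated p53-/- MEFs was 6.64-fold above that in treated WT MEFs. The second E2f7 probe (mm9 chr10:110219255-110219314) lies 5′ of it and was dim, with signals of 230 (untreated) and 170.7 (treated) for WT and of 277.8 and 371.8 for p53-/- MEFs. It put the 4 conditions in the same order, but its log2 ratio in p53-/- MEFs was 0.06, its ratio between treated genotypes 0.71 and its difference of doxorubicin ratios -0.30, where the brighter probe had -1.75. On the untreated p53-/- array it was 1.11 times as bright as the brightest negative control. The rise of E2f7 in p53-/- MEFs thus rests on the brighter probe, and it did not reach 2-fold with the mean of both probes (0.68) or, narrowly, with array median scaling.

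**Figure D2:**
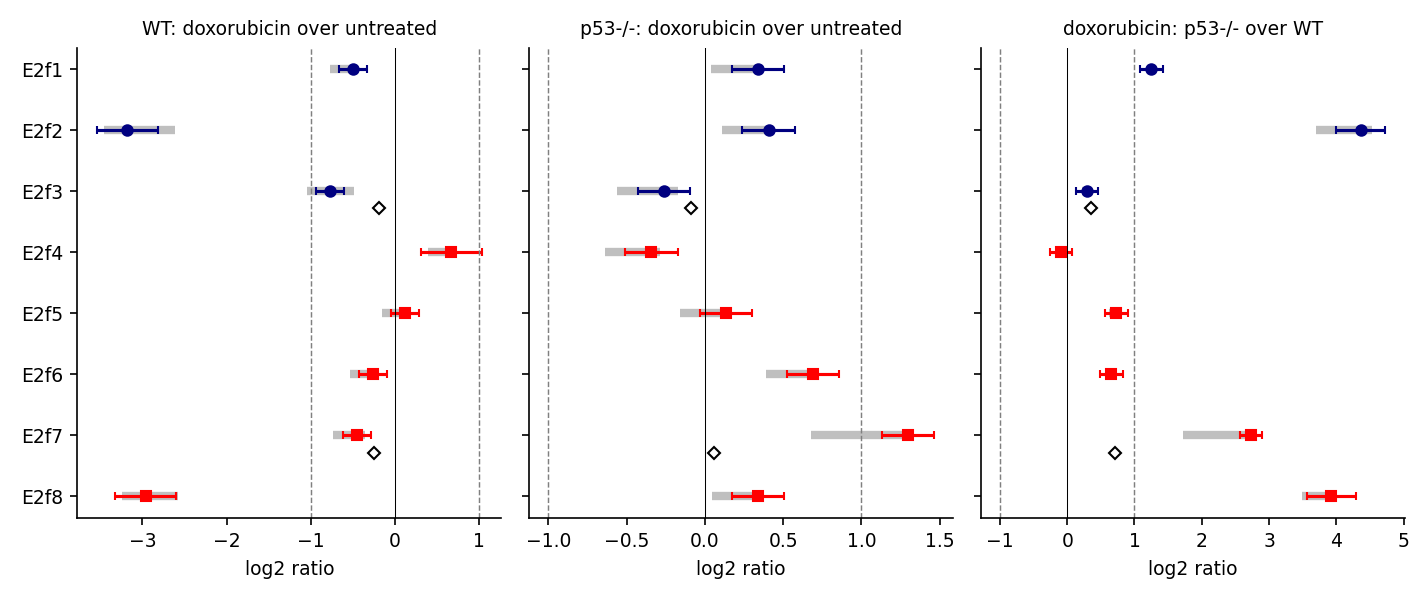
Log2 ratios of the 8 members in 3 comparisons, with circles for activators and squares for repressors. Error bars are 2 SD of a ratio from repeat spots (0.18 SD where a signal was under 300, otherwise 0.08), grey bars span the processing alternatives, open diamonds are second probes and dashed lines mark 2-fold. E2f2 and E2f8 stand past 2-fold in WT MEFs over the whole grey bar, and the open diamond of E2f7 stands at 0.06 in p53-/- MEFs.

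Ranked by level, E2f1, E2f2, E2f7 and E2f8 shared an order, with treated WT lowest, then untreated WT, then untreated p53-/- and last treated p53-/- MEFs. Both classes contributed to this group. The last step was within 2 SD for E2f1, E2f2 and E2f8 with array median scaling (0.04, 0.11 and 0.04) and for E2f7 by its second probe (0.06). How many of all genes have this order was not counted. E2f5 ran from untreated WT over treated WT and untreated p53-/- to treated p53-/- MEFs, with only the middle step past 2 SD. By its bright probe and after scaling, E2f3 ran from treated WT over treated p53-/- and untreated p53-/- to untreated WT MEFs. After scaling, E2f4 was highest in untreated p53-/- MEFs, and E2f6 had treated p53-/- MEFs highest and untreated p53-/- MEFs lowest.

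Set against each other as classes, activators and repressors did not separate. In WT MEFs, the median log2 ratio was -0.77 over the 3 activators (-3.18 to -0.50) and -0.25 over the 5 repressors (-2.96 to 0.67), a contrast of -0.52. The ranges of the classes overlapped. The p53-/- medians were 0.34 and 0.34, with a contrast of -0.0033. The contrast was -0.30 between untreated genotypes and 0.52 between treated genotypes. The difference of the doxorubicin ratios (WT minus p53-/-) had a median of -0.84 over activators and -0.95 over repressors, where all genes had 0.01. It was negative for 7 of 8 members, all but E2f4. A difference of -1 or less was found for 3 members (E2f2, E2f7 and E2f8) and of 1 or more for 1 (E2f4), against 9.86% and 8.37% of all 16513 genes measured on 4 arrays. The values for E2f2, E2f8 and E2f7 were exceeded by 67, 103 and 585 of these genes, and that of E2f7 rests on its brighter probe. The difference of E2f4 was under 1 with normexp and with quantile normalization. Past 2 SD of a ratio in both genotypes, 5 of 8 members were lower with doxorubicin in WT and higher in p53-/- MEFs (E2f1, E2f2, E2f6, E2f7 and E2f8), against 8.05% of all genes, and 1 (E2f4) ran the other way, against 7.16%. With scaling to array medians, 2 members (E2f6 and E2f7) were left of the 5, as the p53-/- ratios of E2f1, E2f2 and E2f8 came to 0.04, 0.11 and 0.04.

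The contrast depended on which repressors entered it. Against E2f4, E2f5 and E2f6 alone, the activators had a contrast of -0.90 in WT MEFs. Against E2f7 and E2f8 alone it was 0.94. Without E2f2 it was -0.38, and without E2f8 it was -0.71. Members of a class are not replicates, and no test was made.

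**Figure D3:**
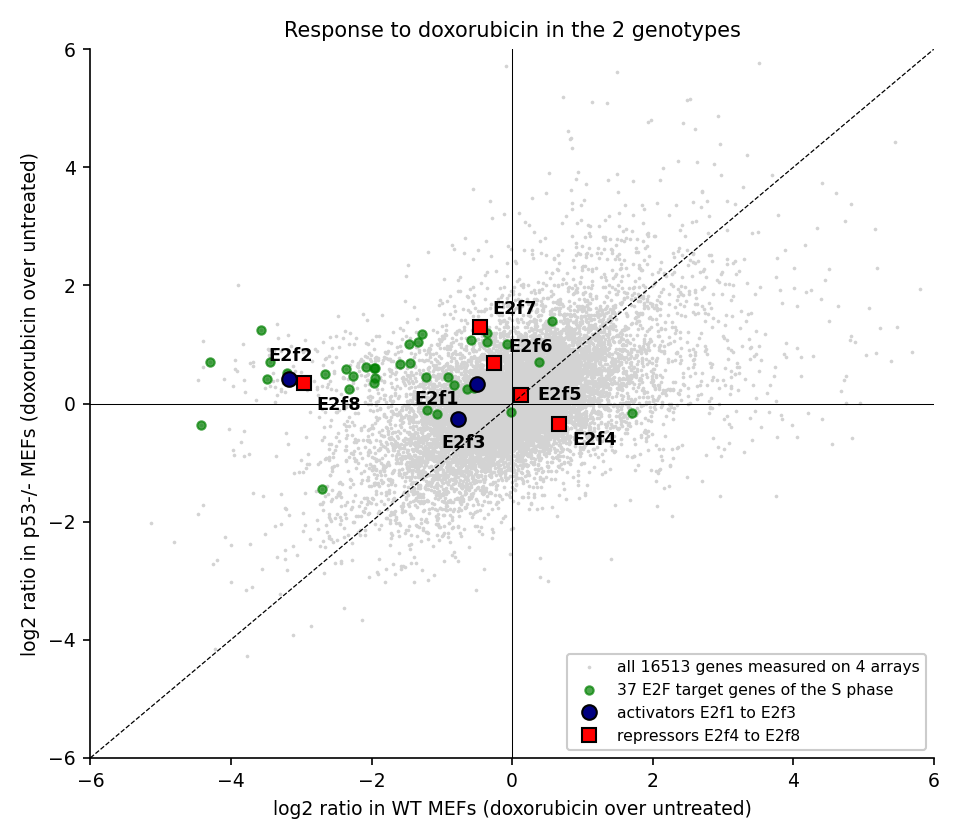
Log2 ratio of doxorubicin-treated over untreated in WT MEFs (x axis) against that in p53-/- MEFs (y axis) for 16513 genes measured on 4 arrays (grey), 37 S phase target genes (green), activators (blue circles) and repressors (red squares); the dashed line marks equal ratios and 5 genes lie outside the axes. E2f2 (activator) and E2f8 (repressor) stand side by side among the S phase targets at the left.

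E2F1 to E2F6 bind DNA as dimers with a DP protein, encoded by Tfdp1 and Tfdp2. Tfdp1 stayed within 2-fold in both genotypes (-0.18 for WT and -0.31 for p53-/- MEFs, on the log2 scale). Tfdp2 had signals of 660 without and 487.5 with doxorubicin in WT MEFs, and of 620 and 1790 in p53-/- MEFs. It rose in p53-/- MEFs by its brighter probe (1.16) and had -0.25 in WT MEFs, while its second probe gave -0.16 in p53-/- MEFs.

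The 3 pocket protein genes moved apart in WT MEFs, where 2 rose and 1 fell (11.0% and 10.4% of all genes). Rb1 went from a signal of 1295 to 4503 (log2 ratio 1.99). Rbl2, which encodes the p130 of DREAM, went from 450 to 1036 (1.39). Rbl1, which encodes p107 and is itself an E2F target, went from 1112 to 426 (-1.20). Without p53, 0 of 3 reached 2-fold, with log2 ratios of 0.37 for Rb1, -0.01 for Rbl2 and 0.03 for Rbl1. The differences between genotypes were 1.62, 1.41 and -1.22 for Rb1, Rbl2 and Rbl1.

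Of 7 genes for the MuvB core and for the factors that join it when the cycle runs, MYBL2 (B-MYB) and FOXM1, 4 fell and 0 rose in WT MEFs (median -1.28). Of all genes, 10.4% fell and 11.0% rose there. Foxm1 fell from 1613 to 310 (log2 ratio -2.19), Mybl2 from 5823 to 1524 (-1.74) and Lin9, a MuvB subunit, from 999.2 to 360 (-1.28). The second probe of Lin9 gave a smaller ratio of -0.44. Without p53, 0 of 7 rose or fell (median 0.58), with 0.61 for Foxm1, 0.58 for Mybl2 and 0.73 for Lin9. With doxorubicin, 5 of 7 were higher in p53-/- than in WT MEFs, against 11.9% of all genes.

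Upstream of RB, 15 of 16 genes for G1 cyclins, kinases and inhibitors were measured in WT MEFs, and 5 fell and 2 rose (median -0.70). The shares of all genes were 10.4% and 11.0%. Ccne1, the cyclin E1 that helps to release E2F and is an E2F target, fell from a signal of 12557 to 1614 in WT MEFs (log2 ratio -2.77) and had 0.25 in p53-/- MEFs. The inhibitors of CDK4 and CDK6 Cdkn2c (p18) and Cdkn2d (p19) fell in WT MEFs (-1.19 and -1.75) and had 0.29 and -0.29 in p53-/- MEFs. Of the genes measured in p53-/- MEFs, 1 of 14 rose and 1 fell (median 0.02), against 9.24% and 6.89% of all genes. The one that rose was Cdkn1a (p21), singled out after its values were seen, at 2.23, and before treatment its log2 ratio of p53-/- over WT was -4.73. It also rose in WT MEFs, by 2.08. Its second probe rose by 1.15 in WT MEFs and was not well above background in untreated p53-/- MEFs.

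The best known targets of E2F are genes for DNA replication and nucleotide synthesis. Of 41 such genes, 37 were measured on both WT arrays, and 25 fell and 1 rose (median log2 ratio -1.47, against 0.01 for all genes). Of all genes, 10.4% fell and 11.0% rose. Tk1, thymidine kinase, fell from a signal of 8057 to 358 (-4.30). Mcm10, which loads replication factors at origins, fell from 2433 to 180 (-3.57), and Mcm3, a subunit of the replicative helicase, from 15555 to 1249 (-3.45). The one that rose was the mismatch repair gene Msh6 (1.70), singled out after its values were seen. Cdc6 and Pola2 had signals of 389 and 165 in untreated WT MEFs and were not well above background in treated WT MEFs (14.6 and 47.9). Brca1 and Chek1 were not well above background on any array.

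Of the targets measured in p53-/- MEFs, 10 of 39 rose and 1 fell (median 0.52), against 9.24% and 6.89% of all genes. Mcm10 rose by 1.25, and Tk1 and Mcm3 had 0.70 and 0.71. With scaling to array medians, 1 target rose in place of 10. Between treated genotypes, 33 of 37 targets were higher and 1 was lower in p53-/- MEFs (median 2.84), against 11.9% and 10.3% of all genes. Tk1 and Mcm10 were 5.91 and 5.98 higher on the log2 scale. The difference of ratios was -1 or less for 30 of 37 targets (median -2.32), against 9.86% of all genes. Fibroblast markers moved on the same arrays, as 5 of 12 fell in WT MEFs (median -0.82) and 2 of 12 in p53-/- MEFs (median -0.27). The shares of all genes that fell were 10.4% and 6.89%. Of the 3 epithelial markers measured, 1 rose in WT MEFs (Krt14, 1.54) and 2 rose in p53-/- MEFs (Krt14, 1.05, and Krt18, 1.91), while Epcam was not well above background on any array. Krt5 had no ratio, as it was well above background in treated WT MEFs alone (signal 951, and 52.99 in untreated WT MEFs). In p53-/- MEFs its signals were 50.5 without and 90.9 with doxorubicin. Cdh1 was well above background only with doxorubicin, in both genotypes. Its signals were 25.2 (untreated) and 56.2 (treated) for WT and 46.3 and 129.6 for p53-/- MEFs. Of the leukocyte markers measured, 0 rose or fell in either genotype. Cd68 had no ratio, as it was well above background in treated WT MEFs alone (signal 211, and 53.2 in untreated WT MEFs). Endothelial and muscle markers that were measured had 0 that rose or fell in either genotype. Of 3 neural markers measured, 0 rose or fell in WT MEFs. In p53-/- MEFs 1 of them rose (Nes, 1.07) and 1 fell (Map2, -1.26). The part of these markers in the results was not tested.

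Genes of apoptosis that E2F1 is known to activate followed another pattern. Of 9 such genes, several of which p53 also controls, 4 rose and 0 fell in WT MEFs (median 0.58), against 11.0% and 10.4% of all genes. The p53-/- counts were 3 and 1 (median 0.29), against 9.24% and 6.89% of all genes. Bcl2l11, which encodes the BH3-only protein BIM, rose in both genotypes, from a signal of 105.5 to 264 in WT (1.52) and from 129 to 1554 in p53-/- MEFs (3.23). Both untreated signals were below the brightest negative control spot of their array (108 and 250). With normexp background correction, the ratios were 1.09 and 2.75. Apaf1, the core of the apoptosome, had 0.32 in WT MEFs, and it fell where p53 was absent (-1.26).

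The 12 genes of the E2F6 complex, a variant polycomb complex, were all measured on the 4 arrays. In WT MEFs 1 fell and 0 rose (median -0.15), and in p53-/- MEFs 0 rose or fell (median 0.11). Of all genes, 10.4% fell and 11.0% rose in WT MEFs, and 6.89% and 9.24% in p53-/- MEFs. The one that fell was Cbx3, a heterochromatin protein gene, with -1.55 in WT and -0.32 in p53-/- MEFs. Hdac1 had -0.56 in WT and 0.53 in p53-/- MEFs, and L3mbtl2 had -0.61 and 0.34. Of 7 germline genes that E2F6 is known to silence, 2 were well above background on all arrays. Taf7l had 0.03 for WT and -0.36 for p53-/- MEFs on the log2 scale. Its signals of 5315 to 6322 on the 4 arrays were not those of a silent gene, and what its probe reads was not tested. Stag3, a meiotic cohesin subunit, had -0.27 in WT and rose in p53-/- MEFs (1.16), with signals of 214 (untreated) and 155.7 (treated) for WT and of 368 and 1061 for p53-/- MEFs. Smc1b and Tuba3a were well above background only with doxorubicin, in both genotypes. Slc25a31 and Mael were not well above background on any array.

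Of 6 genes for the turnover of E2F proteins, 2 fell and 0 rose in WT MEFs (median -0.43), and 0 rose or fell in p53-/- MEFs. Of all genes, 10.4% fell and 11.0% rose in WT MEFs, and 6.89% and 9.24% in p53-/- MEFs. Skp2, the F-box protein of a ubiquitin ligase that binds E2F1, fell from 1132 to 299.9 in WT MEFs (-1.73) and had 0.57 in p53-/- MEFs. Cdc20, an activator of the anaphase-promoting complex, fell in WT MEFs (-1.19) and had 0.87 in p53-/- MEFs. The deubiquitinase gene Usp11 had 0.72 and -0.30.

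**Figure D4:**
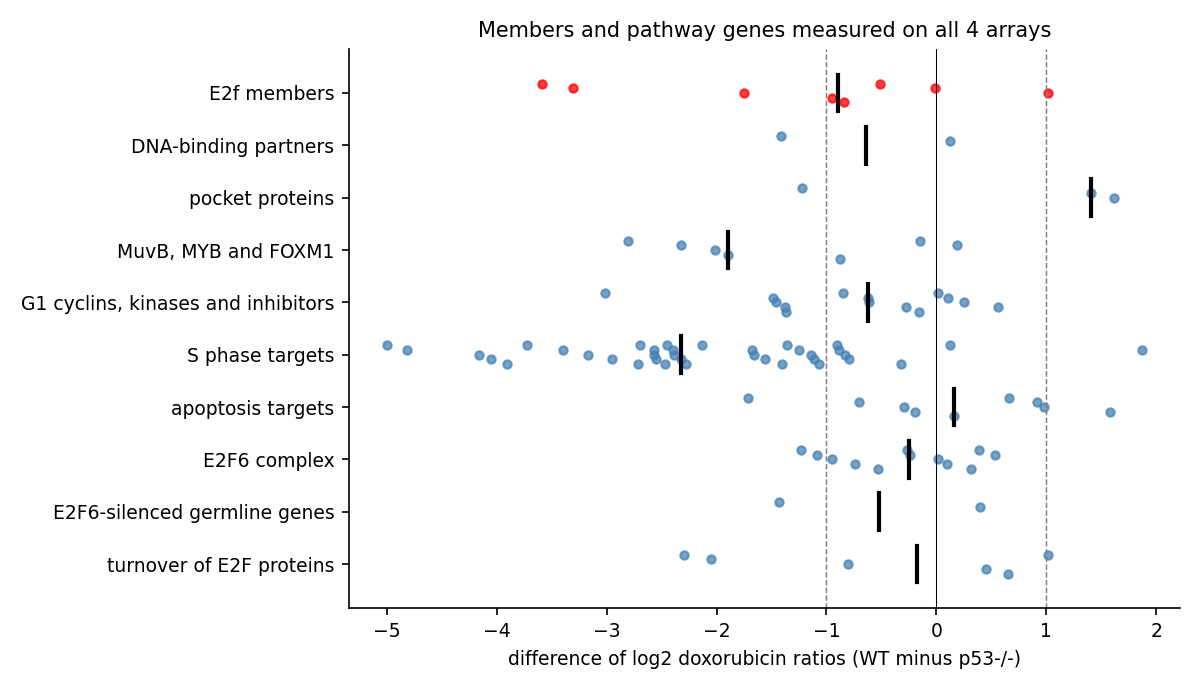
Difference of the log2 doxorubicin ratios (WT minus p53-/-) for the 8 members (red) and for each gene of the 9 pathway lists measured on 4 arrays (blue), with black bars for medians and dashed lines at -1 and 1. The S phase targets reach from -5.00 to 1.87 with a median of -2.32, and E2f2 and E2f8 lie in the lower part of that range.

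Genes most like each member were those with the smallest distance between the 4 log2 signals, each gene centered on its own mean, among 16512 genes measured on 4 arrays. The nearest to E2f2 were Cdk1 and Cenpi (distances of 0.09 and 0.09 log2 units), and E2f8 was 16th. The nearest to E2f8 were Pkmyt1 (0.09) and Cdt1 (0.22), and E2f2 was 11th. The nearest to E2f7 were Rfc3 (0.16) and Serpina3g (0.20). Likeness to E2f7 and to E2f3 was taken for the brighter probe of each alone. Within 4 SD of a spot signal lay 3 genes for E2f8, 4 for E2f7 and 7 for E2f2, and 29 to 296 for the other members. The nearest to E2f1 were 4732460I02Rik and Rbbp4 (0.07 and 0.08). Those of E2f3 were Adamts5 and a transcript listed as NAP111315-1 (0.02 and 0.02). E2f4 was nearest to Serinc4 and Dok3 (0.06 and 0.08), E2f5 to Snhg17 and ENSMUST00000121047 (0.06 and 0.09), and E2f6 to Rnf6 and Zfp943 (0.05 and 0.09). These distances rest on 4 arrays and describe them only.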

How the data were processed

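The authors reverse-transcribed total RNA (200 ng each) from oligo-dT, labeled it with Cy3, and read the one-color Agilent mouse arrays with Feature Extraction 10.7.3.1. Each deposited spot intensity is background-subtracted and not normalized between arrays, and a deposited table of intensities for the series equaled it, within 0.01%, at 44397 of 44397 spots on each array. The deposited flags (0 or 1) mark outlier, saturated and well-above-background spots. Fold changes that the methods took from the Subio Platform were not used.

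Outlier spots (145 to 168 per array) were left out, and 0 spots were saturated. Log2 intensities of a probe were averaged, and the 75th percentile of the 39429 probes that are not controls was subtracted. Each gene was represented by its brightest probe on average, and was measured where well above background (56.9% to 62.9% of probes per array) on the arrays compared. The number of arrays limits the precision. Positions of probes follow the files (mm9). RefSeq (GRCm38.p6) named 30180 probes, 26055 by accession, 3195 by symbol and 930 by synonym, and 9249 kept the name in the file.

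The members, the gene lists and the comparisons were chosen with earlier results of these data known. Beside the members, the text names all genes of the lists of DP partners and pocket proteins, and from each longer list the 3 genes with the largest difference of ratios among those measured on 4 arrays, except where stated. The values of 1 such gene are not reported here. No set test was made. Alternatives were array median scaling, the percentile over probes well above background, quantile normalization, normexp (limma, offset 50), no filter on dim probes, a filter over all arrays, the mean of probes, the deposited table and thresholds of 1.5-fold and 3-fold. The second probes and the changed classes were added after the values were seen. The steps were tested on simulated data. Python 3.11.15 (numpy 2.4.6, pandas 2.3.3, matplotlib 3.10.9) and R 4.3.3 (limma 3.58.1, for normexp alone) were used.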

Additional observations from a re-analysis of the deposited data

Results flagged for a closer look

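For 6 of the 8 members, doxorubicin-treated and untreated arrays differed in opposite directions in the genotypes, by more than 2 SD of a ratio from repeat spots in each (the SD being 0.18 where a signal was under 300, otherwise 0.08). The difference of their log2 ratios (WT minus p53-/-) was -0.84 for E2f1, -3.59 for E2f2, 1.01 for E2f4, -0.95 for E2f6, -1.75 for E2f7 and -3.30 for E2f8. E2f4 alone ran higher in WT and lower in p53-/- MEFs. Of all 16513 genes measured on 4 arrays, 8.05% ran lower in WT and higher in p53-/- MEFs past the same limits and 7.16% the other way. With array median scaling E2f1, E2f2 and E2f8 no longer passed, at 0.04, 0.11 and 0.04 in p53-/- MEFs. By its second probe E2f7 did not pass either, with 0.06 in p53-/- MEFs and a difference of -0.30. With 1 array per condition, none of these differences was tested.

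The same held for 15 of the other named genes, also untested. All of these but Tfdp2 were named for the size of their difference of ratios. Such differences among them thus follow largely from the choice. Of all genes, 8.05% ran lower in WT and higher in p53-/- MEFs and 7.16% the other way. Lower in WT and higher in p53-/- MEFs were Tfdp2 (-1.41), Foxm1 (-2.80), Mybl2 (-2.32), Lin9 (-2.01), Ccne1 (-3.02), Cdkn2c (-1.48), Tk1 (-5.00), Mcm10 (-4.82), Mcm3 (-4.16), Hdac1 (-1.09), L3mbtl2 (-0.95), Skp2 (-2.29) and Cdc20 (-2.05). Apaf1 (1.58) and Usp11 (1.02) ran the other way. In p53-/- MEFs most of these ratios were under 2-fold, and those of Tfdp2, Mcm10 and Apaf1 were past it. With array median scaling Ccne1, Cdkn2c, L3mbtl2 and Apaf1 no longer passed, and the p53-/- ratios of Ccne1 and Cdkn2c turned to just below 0. The second probes of Tfdp2, Lin9 and Ccne1 had -0.16, 0.12 and 0.23 in p53-/- MEFs and did not pass.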

How the results depend on the processing

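With 1 array per condition, the spread of repeat spots was the only error that could be given, and it holds no variation between cultures or labelings. The log2 ratios of the members (40 values) kept their sign where they reached 2-fold under each alternative. They moved by more than 1 SD in 16 cases with array median scaling, 10 with normexp, 9 with the mean of probes, 6 with quantile normalization and 9 with the second probes, and in 0 cases with the other settings. E2f2 ranged from -3.45 (array median) to -2.61 (normexp) in WT MEFs and E2f8 from -3.24 to -2.57, so their falls passed 2-fold throughout. Smaller ratios changed sign for E2f5 with doxorubicin in both genotypes (array median) and in its difference (0.02, percentile over probes well above background), and for E2f3 between untreated genotypes (0.02, mean of probes). E2f7 in p53-/- MEFs lost its rise, which left 0 members, with array median scaling, the mean of probes, the second probe and the 3-fold threshold. By its second probe E2f7 also lost its difference between genotypes (-0.30) and was under 2-fold between treated genotypes (0.71). At 1.5-fold, 2 members were higher in treated p53-/- MEFs (19.4% of all genes), 1 in treated WT MEFs (20.6%) and 5 in untreated p53-/- over WT MEFs (8.73%), and 5 had a difference beyond that size below 0 (19.9%). Opposite directions past 2 SD in the genotypes were lost by 3 of 6 members (E2f1, E2f2 and E2f8) with array median scaling, where the p53-/- ratios of the other named genes Ccne1 and Cdkn2c changed sign. The percentile over probes well above background put 1 member (E2f7) past 2-fold between untreated genotypes. E2f4 no longer had a difference of 1 with normexp, quantile normalization or at 3-fold (0 members). The contrast of activators and repressors in WT MEFs was -0.24 with the mean of probes, -0.26 with the second probes, -0.90 against E2f4 to E2f6, 0.94 against E2f7 and E2f8, -0.38 without E2f2 and -0.71 without E2f8. In p53-/- MEFs it was 0.20 with the second probes, 0.20 against E2f4 to E2f6, -0.48 against E2f7 and E2f8 and -0.30 without E2f2. Between untreated genotypes it was -0.21 with the second probes, -0.39 against E2f7 and E2f8, -0.62 without E2f2 and -0.40 without E2f8. Between treated genotypes it was -2.08 against E2f7 and E2f8 and 0.042 without E2f2. For the difference of ratios it was -0.54 with the second probes, -0.82 against E2f4 to E2f6, 1.69 against E2f7 and E2f8, 0.27 without E2f2 and -0.36 without E2f8. Among S phase targets in p53-/- MEFs, 1 rose with array median scaling (median 0.23), 18 at 1.5-fold and 0 at 3-fold, where 0 also fell. Between untreated genotypes 27 were higher at 1.5-fold and 0 at 3-fold. Their median in WT MEFs was -1.74 with array median scaling and -1.64 with quantile normalization, and between treated genotypes 2.76 with normexp. The cause of these shifts was not tested. A block for the slide could not be run, as there was 1 slide. No paired analysis was possible because each condition had 1 array.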

Other observations

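Germline genes that E2F6 is known to silence included 3 with low signals that were higher with doxorubicin in both genotypes. Smc1b, a meiotic cohesin subunit, had signals of 12.6 in untreated and 176.5 in treated WT MEFs, and of 19.0 in untreated and 246 in treated p53-/- MEFs. Tuba3a, a testis alpha-tubulin, had signals of 62.5 and 137 in WT and of 24.2 and 261 in p53-/- MEFs. For both genes, the treated arrays were well above background and the untreated arrays were not. Tuba3b, a near-identical copy of Tuba3a, so that the probes cannot be taken as separate measurements, had 83.5 and 189 in WT and 60.9 and 280.2 in p53-/- MEFs, with the untreated p53-/- array not well above background. Ccne2, which encodes cyclin E2, was well above background in treated WT MEFs alone, at a signal of 174 (27.5 in untreated WT, 20.8 in untreated p53-/- and 94.8 in treated p53-/- MEFs), while Ccne1 fell in the same cells. The brightest negative control spots had signals of 108 in untreated WT, 77.5 in treated WT, 250.1 in untreated p53-/- and 120 in treated p53-/- MEFs, so these signals are near background.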
